A study of Mus musculus with 6 samples.

Results

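Smooth muscle cells and pericytes wrap the blood vessels of the adrenal gland, and 6 of their genes are described here in 2 mouse strains. The genes are Myh11, Tagln, Actg2, Acta2, Cnn1 and Rgs5. They were found as every probe set, a group of short oligonucleotides that queries 1 transcript, whose platform annotation names 1 gene that is among the 6. This gave 7 probe sets of the 12488 on the array, 2 of them for Rgs5 and 1 for each other gene, and so 6 of the 8252 genes that the annotation names singly. The rule reads gene names and no measured value, though the genes were put forward with earlier results of these data known. The arrays, of the Affymetrix type MG_U74Av2, carried RNA of samples labelled as adrenals. Of them 3 came from the hypertensive strain BPH and 3 from the hypotensive strain BPL. No treatment, age, sex or number of animals per array is given in the labels, and nothing there says that the arrays of a strain came from separate animals. The p-values therefore measure the spread between these arrays, which may be technical.

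Contraction of a smooth muscle cell starts when calcium lets myosin light chain kinase phosphorylate myosin, which then pulls on filaments of smooth muscle actin. Myh11 encodes the heavy chain of that myosin and is the most restricted marker of mature smooth muscle. Acta2 and Actg2 encode the vascular and the enteric form of smooth muscle actin, and Tagln (transgelin, SM22 alpha) and Cnn1 (calponin) encode proteins that bind the filaments. Rgs5, a marker of pericytes, shortens G protein signals from receptors that constrict vessels. Most of these contractile genes are switched on by serum response factor, which binds a short DNA element called the CArG box, together with its cofactor myocardin. Small arteries set the resistance to blood flow and so the blood pressure, the trait that parts the strains, and the comparison asks whether these genes differ between the adrenal glands of both.

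None of the 5 member probe sets tested was called, but the contractile genes did not lie on one side. The Myh11 intensity was 2.05-fold lower on BPH arrays, while Tagln and Actg2 were 1.35-fold and 1.29-fold higher there, each with no overlap between the strains. Acta2 and Rgs5 overlapped. A call means that limma's p, adjusted over all tested probe sets by Benjamini-Hochberg, was under 0.05. Of all 7293 tested probe sets 184 were called, a share of 2.52%. At an unadjusted p under 0.05 there were 3 of the 5 members, against 19.3% of all tested probe sets. The arrays of the strains did not overlap for 3 of the 5, against 26.5% of all. Myh11 entered the test through its BPL arrays, since all 3 of its BPH values lay under the limit for low signal, an intensity of 668.1. The counts over the tested members are for that reason a description only.

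Of markers of the labelled tissue, all 8 cortex genes looked for and the 5 probed of 8 medulla genes passed the limit for low signal, and 0 of them were called. By their brightest probe sets the 5 medulla genes all stood higher in BPH, with a median log2 difference of 0.69. An unadjusted p under 0.05 was reached by 3 of them (Pnmt 0.98, Th 0.78 and Chga 0.69), against 19.3% of all tested probe sets. Another Chga probe set differed by -0.05 (limma adjusted p = 0.919). The summed intensity of the 5 genes ran from 198326 to 243240 on BPH arrays and from 115489 to 214606 on BPL arrays, and their part in the member results was not tested. Summed intensities of 30 probed skeletal and cardiac muscle markers were 311261 on BPH 1 and 316235 on BPL 2, and between 73405 and 111051 on the other 4 arrays. Of these sums 1 probe set, of Car3, gave 74900 and 59624.8 on the former 2 arrays and between 42826.3 and 67892.9 on the latter 4. Among the 19 muscle markers tested 0 were called. Myh2, Actn2 and Myl3 of that list lay throughout under the floor, an intensity of 201.3 to which lower values were raised before log2 was taken. The sum of 14 brown and white fat markers ran from 133457 to 179871 on BPH arrays and from 234141 to 549175 on BPL arrays. BPH 1 and BPH 2 were washed and stained on fluidics station 2 and the other 4 arrays on station 1. The within-station comparison therefore sets BPH 3 alone against the 3 BPL arrays. Since station 2 held no BPL array, a fit with the station as a block takes its strain difference from the same 4 arrays. Strain and station are thus partly confounded. These are bulk samples, in which fewer cells of a type and less RNA per cell cannot be told apart.

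Myh11, the smooth muscle myosin heavy chain, had intensities of 565.2, 510.5 and 603.4 on the 3 BPH arrays and of 875.6, 1333 and 1292.5 on the 3 BPL arrays. Every BPH array lay under every BPL array, and BPL 1 lay closest to the BPH arrays. BPH arrays averaged 559.7 ± 46.7 and BPL arrays 1167 ± 253 (SD, n = 3). On the log2 scale the difference, BPH minus BPL, was -1.04 (SE 0.28, 95% interval from -1.68 to -0.40), which did not pass in limma (adjusted p = 0.0918). Within station 1 the log2 difference was -0.93, and without BPH 1 and BPL 2, the arrays with skeletal muscle transcripts, it was -0.94. Most fat markers stood lower in BPH as well, with a median log2 difference of -1.08 over 12 tested genes, 11 below 0 and 1 above. Of these 0 rose and 3 fell in limma, against 1.56% and 0.96% of all tested probe sets. The 3 were Fasn (fatty acid synthase), Ucp1 (the uncoupling protein of brown fat) and Lipe (hormone-sensitive lipase). Retn stood higher in BPH (0.58), and Adipoq (-0.09), Lep (-0.13) and Fabp4 (-0.37) lay nearer to 0 than the median. The part of the fat markers in the Myh11 result was not tested.

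Tagln, the filament protein transgelin, gave 5395.9, 5041.5 and 5823.8 on BPH arrays and 4183.1, 4040.5 and 3776.3 on BPL arrays. All BPH arrays lay above all BPL arrays, and the spread within each strain was small. BPH arrays averaged 5420 ± 392 and BPL arrays 4000.0 ± 206 (SD, n = 3). On the log2 scale the difference was 0.44 (SE 0.12, 95% interval from 0.16 to 0.71), not called in limma (adjusted p = 0.0947). It was 0.54 within station 1 and 0.45 without BPH 1 and BPL 2.

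**Figure D1:**
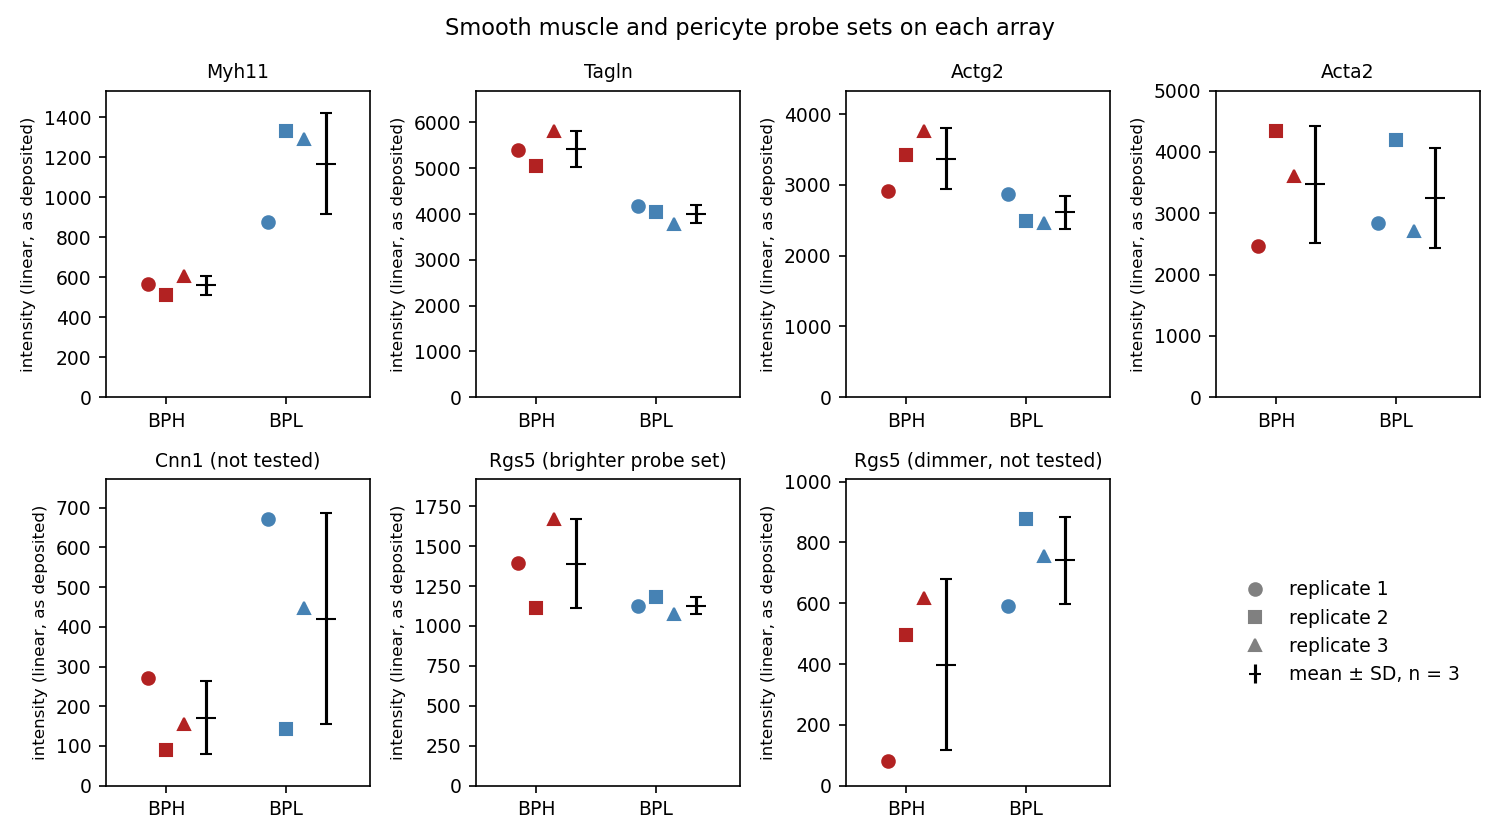
Intensity on a linear axis from 0, as deposited, of the 7 probe sets on each array, with BPH in red and BPL in blue, the replicate shown by the marker, and the mean ± SD (n = 3) in black. The 3 BPH points lie below the 3 BPL points for Myh11 and above them for Tagln and Actg2, while the other 4 panels overlap.

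Actg2, the enteric smooth muscle actin, had intensities of 2912, 3426.4 and 3769.2 on BPH arrays and of 2874.7, 2494.5 and 2463.1 on BPL arrays. BPH 1 and BPL 1 all but touched, and the groups did not overlap. BPH arrays averaged 3369 ± 431 and BPL arrays 2611 ± 229 (SD, n = 3), which makes 0.36 on the log2 scale (SE 0.15, 95% interval from 0.02 to 0.70). It was not called in limma (adjusted p = 0.23). Within station 1 the log2 difference was 0.53.

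Acta2, the vascular smooth muscle actin, gave 2459.4, 4349.9 and 3605.9 on BPH arrays and 2848.6, 4190.9 and 2705.5 on BPL arrays. Both strains held a high array, BPH 2 and BPL 2, and the groups overlapped almost fully. BPH arrays averaged 3472 ± 952 and BPL arrays 3248 ± 819 (SD, n = 3). On the log2 scale the difference was 0.09 (SE 0.24, adjusted p = 0.876 in limma), with a 95% interval from -0.46 to 0.63 that covers changes the size of the Tagln difference. Its lowest array, BPH 1, and its second highest, BPL 2, were the 2 arrays with skeletal muscle transcripts. Without both, the log2 difference was 0.51 (limma adjusted p = 0.218). It was 0.31 without BPH 1, 0.28 without BPL 2, -0.10 without BPH 2, 0.04 without BPH 3, 0.00 without BPL 1, -0.03 without BPL 3 and 0.18 within station 1, so single arrays set its sign.

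The actins are near-identical in sequence, and the Actg2 probe set carries the suffix that Affymetrix gives to probe sets whose oligonucleotides match a gene family. The skeletal muscle actin Acta1 had intensities of 41852.2, 5529.3 and 1549 on BPH arrays and of 320.6, 62861.6 and 1833.2 on BPL arrays. It was far above the rest on BPH 1 and BPL 2, as was a family probe set of the cardiac actin Actc1, with 15427.6 and 9192.3 on those arrays and between 2877.9 and 4576.1 on the others. Another Actc1 probe set, left out of the test as dim, had 6749.7 on BPH 1 but 43 on BPL 2, and at most 668.6 on the other 4. On the same 2 arrays Actg2 had 2912 and 2494.5, in each case not the highest of its strain. Acta2 was lowest of all on BPH 1 and second highest on BPL 2. Whether these probe sets detect other actin transcripts was not tested.

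**Figure D2:**
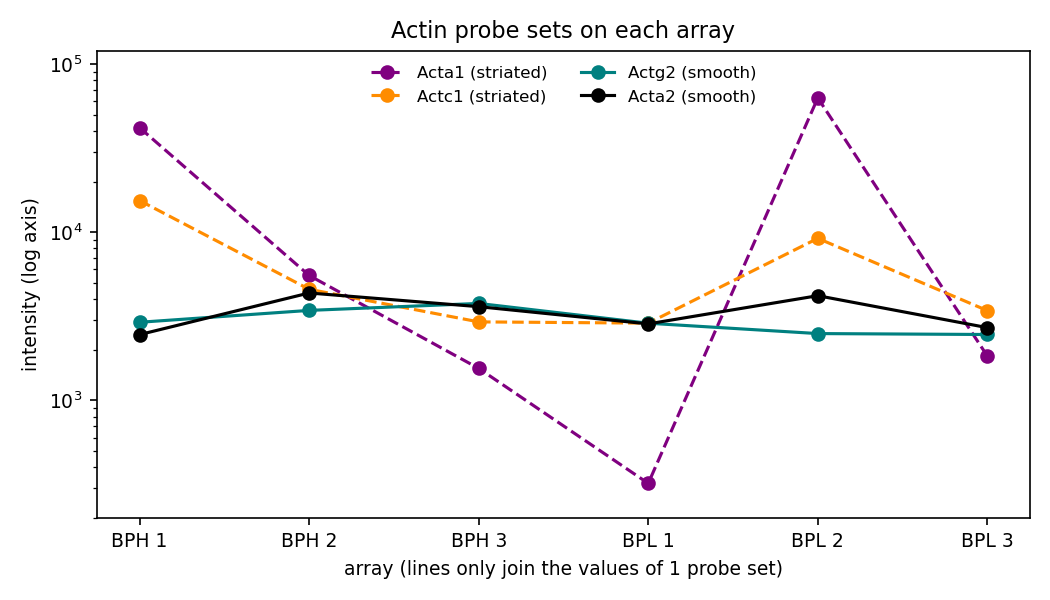
Intensity, on a log axis, of the probe sets of the striated muscle actins Acta1 and Actc1 (dashed) and of the smooth muscle actins Actg2 and Acta2 (solid) on the 6 arrays; only the shape of each line can be read, since levels of different probe sets are not comparable. Acta1 reaches 41852.2 on BPH 1 and 62861.6 on BPL 2, where Actg2 stays at 2912 and 2494.5.

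Cnn1, the calponin of smooth muscle, was dim. Its intensities were 270.2, 88.6 and 154.4 on BPH arrays and 671.4, 141.7 and 447.5 on BPL arrays. BPL 1 and BPL 3 were higher than the rest, BPL 2 lay among the BPH arrays, and 3 of the 6 values were under the floor. It was therefore left out of the test by the limit for low signal. With that limit lifted, the log2 difference was -0.82 (SE 0.48, 95% interval from -2.08 to 0.43, limma adjusted p = 0.542).

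Rgs5, the pericyte regulator of G protein signals, was queried by 2 probe sets that did not lie on the same side. The brighter one had intensities of 1391.9, 1111.3 and 1669.5 on BPH arrays and of 1123.9, 1179.1 and 1074.4 on BPL arrays. BPH 1 and BPH 3 lay above all BPL arrays and BPH 2 among them. BPH arrays averaged 1391 ± 279 and BPL arrays 1126 ± 52.4 (SD, n = 3), which makes 0.29 on the log2 scale (SE 0.21, 95% interval from -0.20 to 0.77, limma adjusted p = 0.498). The difference was 0.57 within station 1, 0.14 without BPH 3 and 0.44 without BPH 2.

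The dimmer Rgs5 probe set had 80.1, 495.1 and 617.1 on BPH arrays and 591.6, 877.2 and 756.1 on BPL arrays. BPH 3 lay just above BPL 1, and BPH 1 was under the floor. With the limit for low signal lifted its log2 difference was -0.89 (SE 0.49, 95% interval from -2.16 to 0.38, limma adjusted p = 0.51). Which of the 2 probe sets follows the Rgs5 transcript more closely was not tested.

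**Figure D3:**
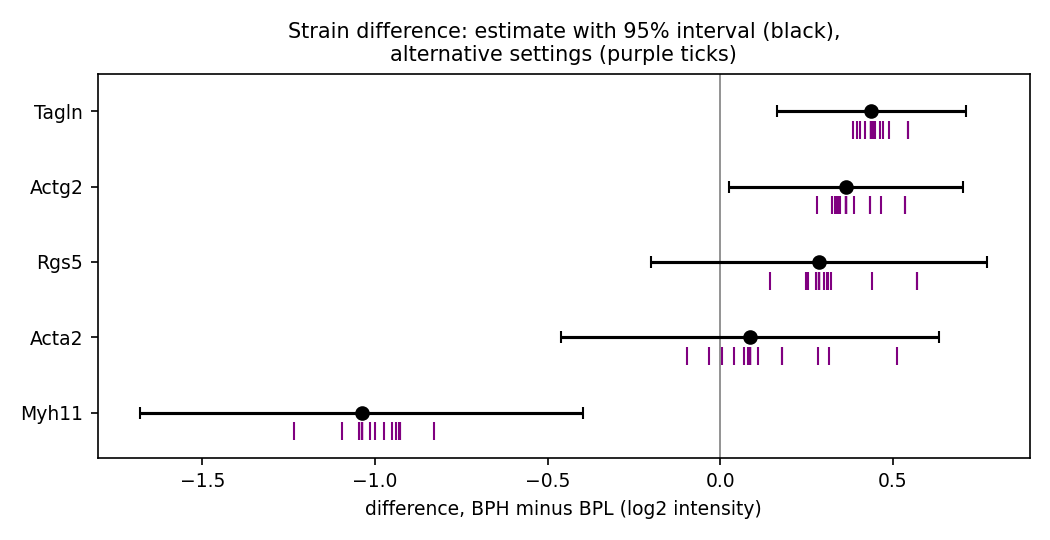
Difference between the strains, BPH minus BPL, in log2 intensity for the 5 tested member probe sets, with the estimate and its 95% interval in black and the same difference under each alternative setting as purple ticks. The ticks run from -1.23 to -0.83 for Myh11 and from 0.38 to 0.54 for Tagln, and cross 0 for Acta2.

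Across the 5 tested member probe sets the median log2 difference was 0.29, against 0.03 over all 7293 tested probe sets, with 4 differences above 0 and 1 below. With the limit for low signal lifted, all 7 member probe sets had a median of 0.085, with 4 above 0 and 3 below. Among themselves, over the 6 arrays and as a description, Tagln and Actg2 ran together (Pearson r = 0.87), and Tagln ran with the brighter Rgs5 probe set (r = 0.82). Myh11 ran against Tagln (r = -0.89) and Actg2 (r = -0.85), and Acta2 ran with neither Tagln (r = 0.10) nor Myh11 (r = -0.07). These values share the strain difference and the 6 arrays.

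The CArG box binds serum response factor and is the element that most of the contractile genes are known to share. The promoter table of RefSeq was searched for it in the 250 bases before the annotated start. The table matched 3 of the 6 genes, Acta2, Cnn1 and Rgs5. A strict box, with A or T alone at its 6 central bases, was in none of the 3. With 1 G or C allowed among the 6, a choice made after the strict search, Acta2 held 2 boxes and the other two held 0. The looser box was in 8.59% of 32851 promoter windows of this length, and 0.67% held 2 or more. The strict box was in 1.47%. A match on one strand is also a match on the other, and it is a description of the letters only. The Acta2 promoter is shown because it alone of the 3 searched held such boxes, which stand in capitals and begin 84 and 34 bases before the start. It is given 5′ to 3′ on the minus strand of GRCm38.p6, chr19:34255374-34255623, from the reference strain and not from BPH or BPL.
Acta2: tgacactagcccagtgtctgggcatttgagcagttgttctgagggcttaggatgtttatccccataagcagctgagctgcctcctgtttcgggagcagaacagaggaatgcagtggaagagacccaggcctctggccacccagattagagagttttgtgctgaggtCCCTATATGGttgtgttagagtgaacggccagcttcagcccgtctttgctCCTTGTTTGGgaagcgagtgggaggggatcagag

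Genes that control the smooth muscle programme included 2 calls. Of 22 genes listed, 16 were probed and 11 tested, each by its brightest probe set, and 2 rose and 0 fell in limma, with a list median of 0.11 on the log2 scale. Of all tested probe sets 1.56% were called higher and 0.96% lower in BPH. Klf4, a zinc finger factor known to repress contractile genes in smooth muscle, had intensities of 2214.8, 2122.2 and 2521.8 on BPH arrays and of 1196.9, 1308.5 and 902.6 on BPL arrays. BPH exceeded BPL by 1.02 on the log2 scale (SE 0.20, limma adjusted p = 0.0335). Gata6, a factor of vascular smooth muscle that adrenal cortex cells also express, had 3413.6, 3752.9 and 3384.2 on BPH arrays and 1750.8, 923.8 and 1982.3 on BPL arrays. BPH exceeded BPL by 1.25 (SE 0.27, limma adjusted p = 0.0472).

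Both calls ended on leaving out any 1 of 4 arrays and held without BPL 2 or BPL 3. For Klf4 the limma adjusted p was 0.0978 without BPH 1, 0.108 without BPH 2, 0.154 without BPH 3 and 0.0737 without BPL 1. For Gata6 it was 0.135, 0.164, 0.162 and 0.0799 without the same arrays. The log2 differences without these 4 ran from 0.95 to 1.07 for Klf4 and from 1.20 to 1.38 for Gata6. The other omissions moved them further. Klf4 differed by 1.13 without BPL 2 and 0.87 without BPL 3, and Gata6 by 0.92 and 1.47. Both calls also ended without BPH 1 and BPL 2 together, with limma adjusted p-values of 0.0775 for Klf4 and 0.0512 for Gata6. The Gata6 difference was then 0.94. With the fluidics station as a block the log2 differences were 1.17 for Klf4 and 1.20 for Gata6, with adjusted p-values of 0.241 and 0.42. Klf5 (0.60, adjusted p = 0.255), a factor of activated smooth muscle, and Elk1 (-0.82, adjusted p = 0.212), which competes with myocardin for serum response factor, were not called. The Elk1 difference was -0.50 without BPH 1, -0.46 within station 1 and -0.39 without BPH 1 and BPL 2, and that of Klf5 was 0.36 without the latter 2.

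Other contractile and cytoskeletal genes of smooth muscle lay on both sides of 0. Of 38 genes listed, 28 were probed and 20 tested, and 1 rose and 0 fell in limma. The shares over all tested probe sets were 1.56% and 0.96%. In the list 12 differences lay above 0 and 8 below, with a median of 0.06 on the log2 scale. Csrp1, a LIM domain protein of smooth muscle filaments, had intensities of 4862.9, 4822.7 and 5692.4 on BPH arrays and of 2843.8, 2504.7 and 3022.1 on BPL arrays. BPH exceeded BPL by 0.88 on the log2 scale (SE 0.14, limma adjusted p = 0.0145), and another Csrp1 probe set was called too (0.92, adjusted p = 0.0274). The call at the brighter probe set ended without BPH 1 (adjusted p = 0.0506), BPH 2 (0.0625) or BPH 3 (0.0882). With the station as a block its difference was 1.03 (adjusted p = 0.134), and without both BPH 1 and BPL 2 it was 0.84 (adjusted p = 0.0533).

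Csrp2, the LIM domain relative of Csrp1 found in vascular smooth muscle, differed by -0.36 on the log2 scale (limma adjusted p = 0.211), with -0.15 within station 1. Cnn2, a calponin of many cell types, differed by 0.40 (adjusted p = 0.25), and Fhl2, a LIM protein that acts with serum response factor, by 0.49 (adjusted p = 0.149). None of these was called. For each of them the arrays did not overlap between the strains. That held for 7 of the 20 tested genes of this list, against 26.5% of all tested probe sets. Itga8 and Kcnmb1, an integrin and a potassium channel subunit of smooth muscle, were under the floor on all 6 arrays.

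Pericyte and mural receptor genes showed no call. Of 32 genes listed, 15 were probed and 9 tested, of which 0 rose and 0 fell in limma and 0 had an unadjusted p under 0.05. The log2 differences ran from -0.45 to 0.20 with a median of -0.04. Notch3, the receptor that maintains arterial smooth muscle, had intensities of 1938.3, 1366.9 and 1820.6 on BPH arrays and of 2065.1, 2923.1 and 2028.4 on BPL arrays, with no overlap. Its difference was -0.45 (SE 0.21, adjusted p = 0.283), and -0.30 without BPH 2 or -0.28 without BPL 2. Mcam, an adhesion molecule of pericytes and endothelium, also did not overlap (-0.24, adjusted p = 0.35), with -0.16 without BPH 1 and BPL 2. Arrays that did not overlap were found for 2 of the 9 tested genes, against 26.5% of all tested probe sets. Pdgfrb, the receptor that recruits pericytes, differed by 0.13 (95% interval from -0.58 to 0.85, adjusted p = 0.853), and Gucy1b1, a subunit of the nitric oxide receptor, by 0.20 (adjusted p = 0.8). Pdgfrb had a value below 0 without BPH 3 or BPL 1, and Gucy1b1 without BPL 1.

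**Figure D4:**
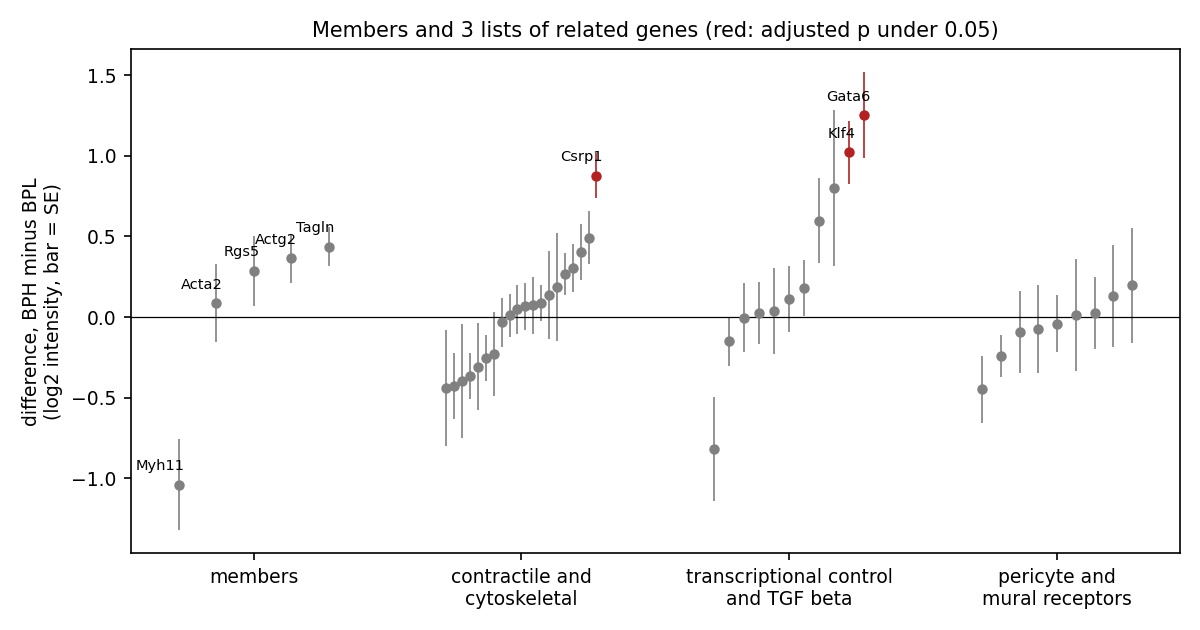
Difference between the strains, BPH minus BPL, in log2 intensity with its SE for the 5 tested member probe sets and for the tested genes of 3 lists, each gene by its brightest probe set, with called genes in red. Csrp1 (0.88), Klf4 (1.02) and Gata6 (1.25) are called, no member is, and Myh11 (-1.04) lies below the other genes shown.

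Cells that neighbour smooth muscle in the vessel wall and the capsule gave no call. Of 13 tested endothelial markers 0 rose and 0 fell in limma. An unadjusted p under 0.05 was reached by 3 of them, 1 higher and 2 lower in BPH, and their median log2 difference was -0.07. The summed intensity of the endothelial markers was between 44114 and 45827 on BPH arrays and between 44477 and 47140 on BPL arrays. Of 16 tested fibroblast and capsule markers 0 rose and 0 fell in limma. An unadjusted p under 0.05 was reached by 4 of them, all higher in BPH, against 19.3% of all tested probe sets, and the list's median was 0.01. These were Dcn (0.52, adjusted p = 0.0612), a matrix proteoglycan of fibroblasts, Mgp (0.58), Fn1 (0.74) and Pdgfra (0.64), named after their values were seen. Of the 16 differences 9 lay above 0 and 7 below, the lowest being that of Col6a1 (-0.30). The sums of the listed markers ran from 145376 to 153897 in BPH and from 133888 to 145480 in BPL. Their part in the member results was not tested.

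Over the 6 arrays the mean log2 intensity of Myh11, Tagln, Actg2 and Acta2 was most like that of Myrf (r = 0.99), Lep (r = 0.98), Atxn7l1 (r = 0.97), Gne (r = 0.97) and Mlx (r = 0.97). Since Myh11 ran against Tagln (r = -0.89) and Actg2 (r = -0.85), their opposite differences offset each other in the mean. It is therefore not a profile that these genes share. Of 6564 probe sets of other named genes 43 reached an r of 0.9 with that mean. The brighter Rgs5 probe set was most like Acly (r = 0.97), Nfkbiz (r = 0.95), Irf2bp1 (r = 0.95), Ifi27l2a (r = 0.95) and H2-D4 (r = 0.95), with 15 at an r of 0.9 or more. With 6 arrays and this many probe sets, values of this size are a description only.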

How the data were processed

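The authors deposited linear intensities for each probe set on each array and no detection calls. They were made with software not given in the sources used here. Their mean after trimming 2% at each end was between 2501.3 and 2501.5 on all 6 arrays, so no scaling was added. Values were floored at the 20th percentile of the table (201.3) and taken to log2, which understates changes of dim genes. The 66 control probe sets and those whose mean log2 lay under the 40th percentile (668.1) were left out, leaving 7293. Differences, BPH minus BPL, came from lmFit and eBayes of limma 3.58.1 (R 4.3.3) with trended variance, two-sided, with Benjamini-Hochberg adjustment over all tested probe sets. The method was tested on simulated data. Means ± SD are of the unfloored intensities. The number of arrays limits the precision.

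Names came from the platform annotation. Of 10855 probe sets with 1 gene, 10839 were matched by gene number to RefSeq symbols (GRCm38.p6); 396 had several genes and 1237 none. The members and lists were chosen with earlier results of these data known. Named are all members, the 4 genes of smallest p in each of 3 lists, called or bright markers, the striated actins and the 5 most similar profiles per pattern; of the markers, only some are printed. Other settings covered scaling, floor, filter, variance model, replicate number, station, threshold and leaving out arrays. Omitting BPH 1 and BPL 2 together was chosen after seeing the data.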

Additional observations from a re-analysis of the deposited data

How the results depend on the processing

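No member probe set was called under any setting run: the count stayed at 0 in all, while Myh11 kept a negative and Tagln, Actg2 and the brighter Rgs5 probe set a positive difference wherever they were tested. Myh11 and Rgs5 were not tested under the 60th percentile filter. The limma adjusted p ran from 0.0627 to 0.714 for Myh11 and from 0.0727 to 0.654 for Tagln. Acta2 turned to -0.10 without BPH 2 and -0.032 without BPL 3, Gucy1b1 to -0.036 without BPL 1, and Pdgfrb to -0.030 without BPH 3 and -0.0080 without BPL 1. On leaving out 1 array their highest values were 0.31 for Acta2, 0.48 for Gucy1b1 and 0.33 for Pdgfrb. The cause was not tested.

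The median member difference (0.29) was 0.085 with no filter, when 7 probe sets entered, 0.53 both within station 1 and with the fluidics station as a block, 0.43 without BPH 1 and BPL 2, and from 0.14 to 0.35 on leaving out 1 array. Of all probe sets 184 were called, 52 with no filter, 83 without the intensity trend, 18 with the station as a block, 7 within station 1, 48 at an adjusted p under 0.01, and from 42 (without BPH 2) to 361 (without BPL 3) on leaving out 1 array. The contractile and cytoskeletal list went from 1 call to 0 with no filter, within station 1, with the station as a block, without BPH 1 and BPL 2 and at 0.01, and ran from 0 to 1 on leaving out 1 array. The control list went from 2 calls to 1 with the 60th percentile filter, which left Klf4 out, and to 0 with no filter, without the trend, with the replicate block or the station as a block, within station 1, without BPH 1 and BPL 2 and at 0.01, and ran from 0 to 2 on leaving out 1 array.

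Arrays of the same replicate number did not deviate together (correlations of -0.22, -0.08 and 0.01), so the numbers were not taken as pairs. With the replicate block 124 probe sets and 0 members were called.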
